A study of Mus musculus with 4 samples.

Results

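Kinesins are motor proteins that turn the energy of ATP into movement along microtubules. The kinesin superfamily genes were compared between mouse hematopoietic stem cells (HSC) and the multipotent progenitors (MPP) into which they mature. The members were every probe set of the array that the platform annotation assigns to exactly 1 gene whose symbol is Kif followed by a number. These were 99 of 45037 probe sets, for 37 of 18193 named genes. By role, 12 genes (25 probe sets) were mitotic kinesins, 15 (56) were transport kinesins and 10 (18) had other roles in cilia, Hedgehog signalling, microtubule shortening or less known processes.

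Mitotic kinesins build and shorten the spindle, move chromosomes and set up the cleavage furrow, and their transcripts in most cell types rise in G2 and mitosis and are low in resting cells. Transport kinesins carry vesicles, mitochondria, endosomes and messenger RNA toward the plus ends of microtubules and are used by dividing and resting cells alike, with several forms best known from neurons. Long-term HSC of adult bone marrow are known to divide rarely, whereas MPP cycle more.

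The HSC were CD34(-)KSL cells and the MPP were CD34(+)KSL cells, both sorted from mice of C57BL/6 background; the KSL part of the name refers to sorting on c-Kit, on absent lineage markers and on 1 other surface protein. The labels give no age, sex or tissue, and name no transgene or treatment. Each group had 2 samples called biological replicates, but the labels do not name the animals or pools behind them. Each p-value therefore speaks for the spread among these 4 samples, which may be partly technical. The RNA of 3000 cells from each sample went through 2 cycles of amplification and onto 1 Affymetrix array, on which a probe set's brightness, in arbitrary units, reads the transcript.

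All 3 listed MPP markers (Cd34, Flt3 and Cd48) were lower in HSC at a limma adjusted p under 0.05. All 4 measured HSC markers were higher. Over all genes tested, 5.90% were called lower and 7.71% higher. The groups were sorted by CD34, so the direction of Cd34 was set by the sort. A floor, the highest signal of 27 bacterial control probe sets on each array, lay between 13.6 and 16.9 units. The HSC marker Vwf read 3.82 and 13.4 in MPP, under the floor, so it could be tested only because it was high in HSC. HSC replicate 2 stood apart in the 3' to 5' signal ratio of actin, a measure of RNA quality, with 9.42 against 4.99 to 5.26 on the other arrays. Of the other cell types, 5 macrophage markers summed to 162 to 191 units in HSC and 448 to 710.4 in MPP, with C1qa under the floor on every array. Of the 4 tested, only Csf1r was lower (log2 difference, HSC minus MPP, -3.09, adjusted p = 2.95e-04). Cd68 (-0.82), Adgre1 (0.12) and C1qb (0.44) were not called. The 4 stroma markers also summed to less in HSC (83.9 to 108) than in MPP (198 to 241). Of the 3 tested, only Pdgfrb was lower (-2.17, adjusted p = 0.00124), while Cxcl12 (0.46) and Lepr (0.31) lay above 0 without a call. The 4 endothelium markers summed to more in HSC (204 to 208 against 115 to 119). Of the 3 tested, Kdr was higher (1.88, adjusted p = 0.0203), and Emcn (0.67) and Pecam1 (-1.02) were not called. Cdh5 was under the floor on every array. The 5 megakaryocyte markers summed to 787 to 945 in HSC and 226 to 381 in MPP. Pf4 (1.28), Gp9 (2.26) and Itgb3 (2.42) were called higher, while Ppbp (1.26) and Gp1bb (-0.20) were not called. The 3 measured erythroid markers summed to 152 to 210.2 in HSC and 53.5 to 67.5 in MPP. Klf1, the only erythroid marker tested, read 133 and 206 in HSC and 46.2 and 35.5 in MPP and was called higher (1.88, adjusted p = 0.00228). The 4 measured T cell markers summed to at most 67.3 in HSC and 46.2 in MPP, with Cd3e, Cd3d and Cd3g under the floor throughout. The 6 granulocyte markers summed to 53.1 to 136 in HSC and 116 to 170.5 in MPP. Elane (-1.28), Ltf (-0.48) and Ngp (-0.10), the 3 tested, were not called. The 4 measured B cell markers summed to 174 to 204 in HSC and 149 to 205 in MPP, and none of the 3 tested was called. The part of these markers in the differences below was not tested.

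The listed mitotic kinesins that were bright enough to be tested were lower in HSC. Of 12 genes, 9 passed the filter on dim probe sets and all 9 fell (limma adjusted p under 0.05), where 5.90% of all 12382 genes tested were called lower. The median log2 difference of the 9, HSC minus MPP, was -1.91, beside 0.10 over all genes tested, and the range was -3.37 to -1.23. Kif20a passed the filter only through its MPP level; the 8 that passed in both groups also fell, with a median of -1.85 and a range of -2.97 to -1.23. The list was drawn up with earlier results known and leaves out Kif2a, which also acts at spindle poles and was not lower in HSC; with Kif2a counted in, 9 of 10 fell and the median was -1.85. In each of the 9 genes both HSC arrays read below both MPP arrays, which held for 23.4% of all genes tested. In RNA of a sorted population, fewer cells in mitosis and less RNA per cell cannot be told apart.

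**Figure D1:**
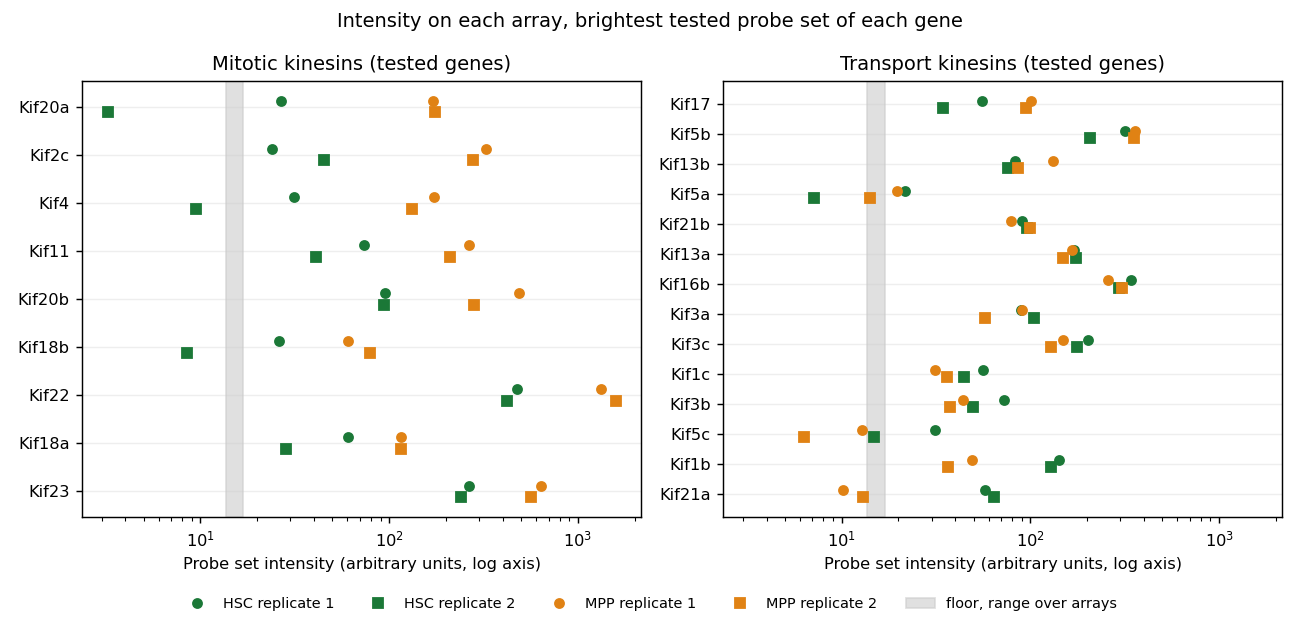
Intensity of the brightest tested probe set of each mitotic (left) and transport (right) kinesin on the 4 arrays (arbitrary units, log axis); green marks HSC, orange MPP, circles replicate 1, squares replicate 2, and the grey band spans the floors of the arrays. In the left panel both green points lie below both orange points in all 9 genes (23.4% of all genes tested). In the right panel green lies above orange in 7 of 14 rows and below it in 3 (35.3% and 23.4% of all genes tested), and the remaining rows overlap. Rows belong to different probe sets and are not to be compared with each other.

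Kif11 (Eg5), the motor that pushes the spindle poles apart, read 73.5 and 40.9 units in HSC and 266 and 211 in MPP. The HSC arrays were both low, and the log2 difference was -1.99 (SE 0.29, adjusted p = 0.0016), or -2.73 without HSC replicate 1. A further Kif11 probe set also fell, at -2.80 (adjusted p = 7.34e-05), but the last one read 39.3 and 71.3 in HSC and 60.1 and 38.2 in MPP, a difference of 0.13 with no call. Kif15, which can stand in for Kif11 in holding the spindle bipolar, had 1 probe set, with 4.40 and 4.65 in HSC and 8.81 and 4.07 in MPP, all under the floor, and was not tested.

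The motors that act on chromosomes and kinetochores showed the same direction. Kif2c (MCAK), which takes microtubules apart at centromeres and so corrects faulty attachments, read 24.0 and 45.0 units in HSC and 325 and 278 in MPP. That was a log2 difference of -2.97 (SE 0.29, adjusted p = 1.41e-04), a 7.85-fold lower level on the log2(intensity + 6.01) scale, which understates changes of dim genes. The other 2 tested Kif2c probe sets were at -1.08 and -1.11 without a call, and with the mean of all 3 the difference was -1.72. Kif22 (Kid), a chromokinesin that pushes chromosome arms to the spindle equator, read 474 and 421 in HSC and 1324 and 1589 in MPP, with the arrays of each group close together. Its difference was -1.68 (SE 0.17, adjusted p = 1.83e-04), and all 3 tested Kif22 probe sets fell, with differences from -2.09 to -1.46.

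Kif18a, which limits the length of kinetochore microtubules, read 60.2 and 28.5 units in HSC and 115 on both MPP arrays. The HSC replicates lay further apart than the MPP replicates, and the difference was -1.34 (SE 0.33, adjusted p = 0.027). Kif18b, which shortens astral microtubules, read 26.2 and 8.50 in HSC and 60.7 and 78.9 in MPP, a difference of -1.80 (SE 0.42, adjusted p = 0.0218). HSC replicate 2 was under the floor for Kif18b, and the other 3 arrays were above it. Kif2b, a depolymerase related to Kif2c, stayed under the floor with 1.34 and 0.341 in HSC and 8.94 and 1.47 in MPP and was not tested.

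Motors of the central spindle and cytokinesis were lower in HSC as well. Kif20a (MKLP2), which brings the chromosomal passenger complex to the central spindle, read 26.8 and 3.22 units in HSC and 171 and 176 in MPP. HSC replicate 2 was under the floor, and the difference was -3.37 (SE 0.49, adjusted p = 0.00176). It was -4.28 without HSC replicate 1 and -2.45 without HSC replicate 2. Kif20a passed the filter on dim probe sets only through its MPP level, so it could be tested only because it was high there. Kif4, a chromokinesin that also works with Prc1 to size the central spindle, read 31.5 and 9.44 in HSC and 172 and 132 in MPP (log2 difference -2.70, SE 0.40, adjusted p = 0.00193), again with HSC replicate 2 under the floor; it was at -3.34 without HSC replicate 1 and -2.07 without HSC replicate 2. Kif20b, which acts late in abscission, read 94.5 ± 0.724 (SD, n = 2) in HSC and 489.9 and 280.3 in MPP (-1.91, SE 0.26, adjusted p = 0.00124). The other tested Kif20b probe set was at -0.47 with no call, and the mean of both at -1.19.

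Kif23 (MKLP1), the motor subunit of centralspindlin that bundles midzone microtubules, read 265 and 239.9 units in HSC and 639 and 566 in MPP. Its replicates were tight in both groups (log2 difference -1.23, SE 0.18, adjusted p = 0.00168), and the other tested probe set was at -0.74 with no call. Kif14, which recruits citron kinase to the midbody, read 1.06 and 0.643 in HSC and 16.7 and 7.22 in MPP. Only MPP replicate 1 was above the floor for Kif14, and the gene was not tested.

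Over all probe sets of the 12 mitotic genes, 17 of 25 were tested, 12 fell and none rose, against 4.65% lower and 5.96% higher among all 27022 probe sets tested. The overlapping Kif11 probe set was the only one of the 17 above 0. With no filter on dim probe sets, all 12 genes were below 0 and 7 fell (2.65% of all genes were called lower there); Kif14 was at -1.34 (adjusted p = 0.14), Kif2b at -0.63 and Kif15 at -0.21. HSC replicate 2 read below HSC replicate 1 in 8 of the 9 genes, with a median log2 gap of -0.76, where 50.4% of all genes tested did. Without HSC replicate 2, the array with the high actin ratio, 8 of the 9 fell with a median of -1.61.

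**Figure D2:**
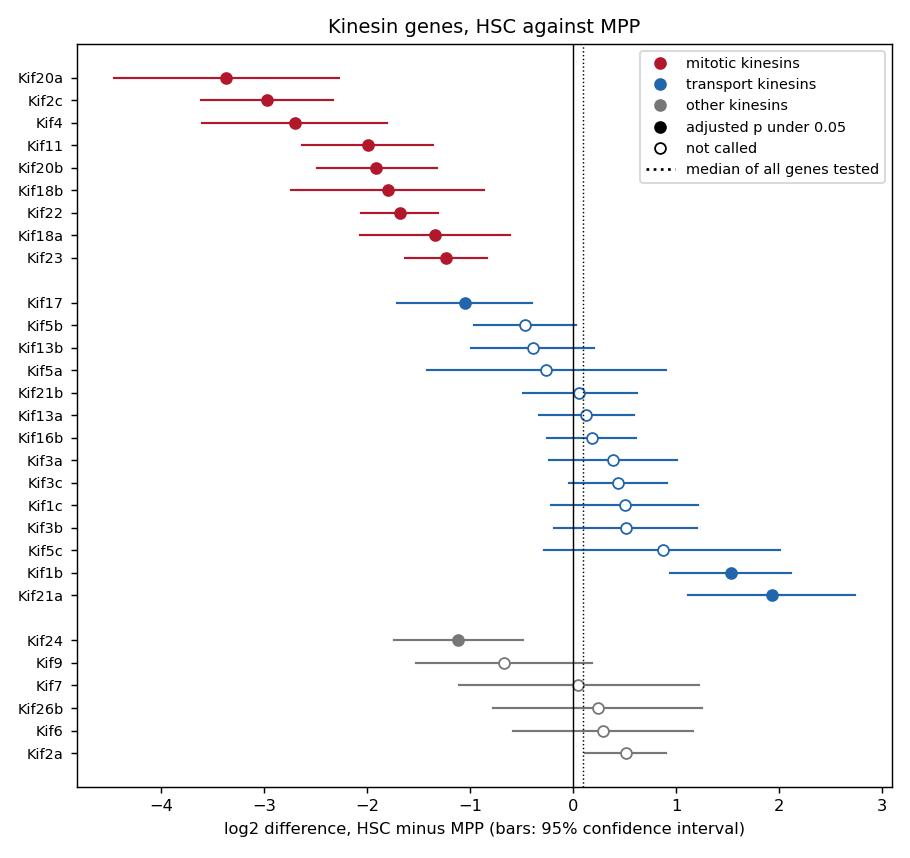
Log2 difference, HSC minus MPP, of the brightest tested probe set of each kinesin gene, with its 95% confidence interval from limma; filled points have an adjusted p under 0.05, and the dotted line is the median of all genes tested. The 9 mitotic genes run from -3.37 to -1.23, and 11 of the 14 transport kinesins are open points between -0.47 and 0.87.

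Kif18a was uncalled with HSC replicate 2 left out (adjusted p = 0.0619), and with MPP replicate 1 (0.0813) or 2 (0.0934) left out. Kif18b was uncalled without MPP replicate 2 (adjusted p = 0.127), and both genes were uncalled when dim probe sets were kept (0.0882 and 0.096). With no trend in the prior variance 6 of the 9 fell, Kif18a, Kif18b and Kif23 being uncalled (0.112, 0.0868 and 0.0504). Without probe sets of the types _x_at, _s_at and _a_at, which can match several transcripts, 6 of 8 genes fell. Kif20b and Kif2c were at -0.47 and -1.08 there with no call (adjusted p = 0.531 and 0.135), and Kif20a was not tested. The share of all genes called lower was 2.65% with no filter. It was not computed for the other alternatives, so their counts have no share to be judged against.

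The promoters of the mitotic kinesins are shown here because their genes moved together. Many genes of G2 and mitosis carry a cell cycle genes homology region (CHR), searched as TTTGAA, downstream of CCAAT boxes, searched as CCAAT; both were searched on both strands, and no match of one overlaps a match of the other in the stretches printed. RefSeq windows of GRCm38.p6, from 250 bases before to 50 after each transcription start, were matched for 31 of the 37 genes. Those without one are Kif20a, Kif5a, Kif5b, Kif13b, Kif21b and Kif28. Below, 110 bases before and 30 after the start are given 5′ to 3′ in the direction of the gene, with matches of either motif in capitals. This shorter stretch was chosen after the positions of the matches had been seen. The mitotic genes printed are those that fell and have a CHR match close to the start. Kif18a and Kif2c also fell and are not printed. A match on the opposite strand reads TTCAAA or ATTGG.
Kif11: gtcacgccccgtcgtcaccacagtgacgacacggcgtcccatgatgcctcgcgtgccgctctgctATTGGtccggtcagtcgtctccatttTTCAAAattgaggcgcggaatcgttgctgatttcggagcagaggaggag
Kif22: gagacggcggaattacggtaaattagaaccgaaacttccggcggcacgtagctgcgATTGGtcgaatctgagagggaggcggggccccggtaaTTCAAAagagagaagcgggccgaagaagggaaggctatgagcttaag
Kif18b: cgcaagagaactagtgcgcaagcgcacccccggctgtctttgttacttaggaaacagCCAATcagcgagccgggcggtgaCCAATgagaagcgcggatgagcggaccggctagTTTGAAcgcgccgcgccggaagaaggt
Kif23: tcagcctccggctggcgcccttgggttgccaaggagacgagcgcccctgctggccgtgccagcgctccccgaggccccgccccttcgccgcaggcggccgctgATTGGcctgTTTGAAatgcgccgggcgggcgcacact
Kif4: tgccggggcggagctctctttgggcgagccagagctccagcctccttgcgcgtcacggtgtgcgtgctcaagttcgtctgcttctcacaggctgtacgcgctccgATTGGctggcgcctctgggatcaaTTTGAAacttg
Kif20b: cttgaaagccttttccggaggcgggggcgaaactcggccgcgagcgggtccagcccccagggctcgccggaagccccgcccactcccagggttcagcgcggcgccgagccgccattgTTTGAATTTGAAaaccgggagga

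Those 6 lie at chr19:37376272-37376411 (plus strand) for Kif11, chr7:127042391-127042530 (minus strand) for Kif22, chr11:102925095-102925234 (minus strand) for Kif18b, chr9:61946770-61946909 (minus strand) for Kif23, chrX:100625955-100626094 (plus strand) for Kif4 and chr19:34922248-34922387 (plus strand) for Kif20b. In the first 5 a CCAAT box match stands 5′ of a CHR match close to the start. In Kif20b 2 CHR matches stand next to each other, with their first bases 8 and 14 bases after the start, and there is no CCAAT match. For comparison, the same stretch is given for the transport kinesins Kif1b and Kif21a, which were higher in HSC, and Kif17, which was lower.
Kif1b: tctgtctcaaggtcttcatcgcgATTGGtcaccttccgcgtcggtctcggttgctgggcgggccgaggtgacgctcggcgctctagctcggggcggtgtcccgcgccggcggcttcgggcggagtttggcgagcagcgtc
Kif21a: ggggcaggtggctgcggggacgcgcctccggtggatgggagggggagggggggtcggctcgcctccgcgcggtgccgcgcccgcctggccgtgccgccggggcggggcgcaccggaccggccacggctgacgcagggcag
Kif17: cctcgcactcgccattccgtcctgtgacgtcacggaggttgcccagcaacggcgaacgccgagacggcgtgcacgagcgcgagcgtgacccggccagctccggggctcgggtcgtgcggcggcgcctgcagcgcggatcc

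These lie at chr4:149307704-149307843 (minus strand), chr15:91049922-91050061 (minus strand) and chr4:138262141-138262280 (plus strand). Kif1b had 2 CCAAT box matches, 1 of them in the printed stretch, and no CHR match in its window, and Kif21a and Kif17 had neither motif. Over the whole windows, a CHR match was present in 9 of 11 mitotic kinesin promoters (81.8%), in 1 of 13 windows of transport kinesins (7.69%) and in 17.9% of all 32851 windows. In the printed stretch it was present in 8 of the 11 (72.7%), in 1 of 13 transport windows (7.69%) and in 7.77% of all windows. That stretch was chosen after the matches had been seen, so these shares are partly set by the choice. A CCAAT box match was in 7 of 11 mitotic (63.6%), 4 of 13 transport (30.8%) and 37.4% of all windows. Both motifs, in any order, were in 6 of 11 mitotic, 0 of 13 transport and 6.95% of all windows. In Kif14 the CHR match, 228 bases before the start, stood 5′ of the CCAAT match, 92 bases before it. Kif14, Kif15 and Kif2b are among the 11 but were not tested for a difference. Among the 9 genes that fell, Kif18a had neither motif. Kif2c, also among them, had 1 CHR match, 103 bases before the start, and no CCAAT match. The stretches of these genes are not printed above. These are matches of letters, given as a description.

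**Figure D3:**
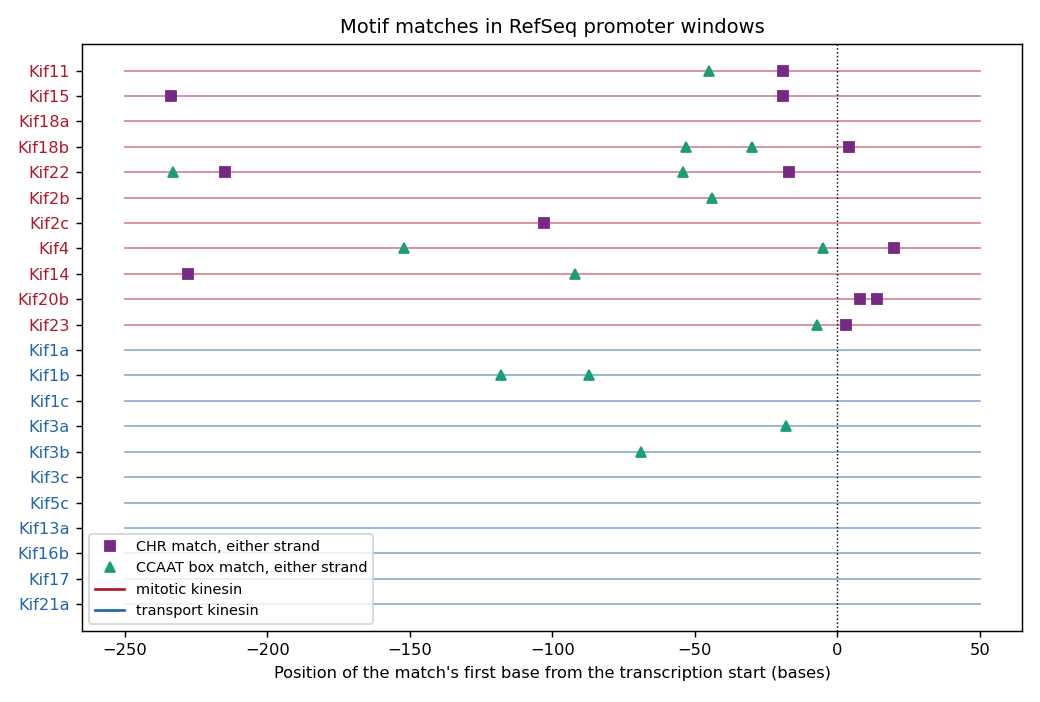
Positions of CHR and CCAAT box matches on either strand in the promoter windows of mitotic (red) and transport (blue) kinesins, as bases from the transcription start (first window of each gene). Purple squares cluster within 20 bases of the start in Kif11, Kif15, Kif18b, Kif22, Kif4, Kif20b and Kif23, and no blue line carries one. A CHR match in window 2 of the transport kinesin Kif1a, 44 bases before the start, is not drawn.

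Transport kinesins showed no common direction. Of 15 genes, 14 were tested: 2 rose (Kif1b and Kif21a), 1 fell (Kif17) and 11 were not called, where 7.71% of all genes tested were called higher and 5.90% lower. Their median log2 difference was 0.29, with 10 genes above 0 and 4 below, beside a median of 0.10 over all genes tested. With equal array medians the list's median was 0.05 and that of all genes -0.14; after quantile normalization they were 0.22 and 0.02. Both HSC arrays read above both MPP arrays in 7 of the 14 genes and below them in 3, against 35.3% and 23.4% of all genes tested.

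Kif1b, which moves mitochondria and precursors of synaptic vesicles, read 141 and 128 units in HSC and 49.0 and 36.8 in MPP. The groups were well apart on this probe set, with a log2 difference of 1.53 (SE 0.27, adjusted p = 0.00447). The other 6 tested Kif1b probe sets lay between -0.39 and 0.79 and none was called, and with the mean of all 7 the difference was 0.54 with no call (adjusted p = 0.233).

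Kif21a, a motor that restrains microtubule growth at the cell cortex, read 57.3 and 63.9 units in HSC and 10.1 and 12.9 in MPP. It was listed with the transport kinesins as a kinesin-4 motor outside mitosis, although the role named here is not the carrying of cargo. Both MPP arrays were under the floor, so the level in HSC was at least 4.24-fold higher, and the fitted difference was 1.93 (SE 0.37, adjusted p = 0.0073). Kif21a passed the filter only through its HSC level, so it could be tested only because it was high there; of the 11 transport kinesins that passed in both groups, 1 rose and 1 fell, with a median of 0.18. The other tested Kif21a probe set was at 1.04 with no call.

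Kif17, a motor known for carrying receptors into neuronal dendrites, was the transport kinesin that fell. Its brightest probe set read 55.5 and 34.4 units in HSC and 100.2 and 94.6 in MPP (log2 difference -1.05, SE 0.30, adjusted p = 0.047). Another probe set read 23.3 and 23.7 in HSC and 75.1 and 71.2 in MPP, with no overlap and close replicates (-1.42, adjusted p = 0.0145). The remaining Kif17 probe set was at -0.81 with no call (adjusted p = 0.324), under the floor on both HSC arrays. The brightest probe set was uncalled when HSC replicate 2 (adjusted p = 0.128), MPP replicate 1 (0.194) or MPP replicate 2 (0.165) was left out, and also with the smaller pseudocount (0.0516), no filter (0.118) or no trend (0.115). Of 5 neuronal markers, Snap25, Tubb3 and Stmn2 were under the floor on every array, and the 5 summed to 38.1 to 78.1 units in HSC and 48.5 to 68.7 in MPP.

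For the 4 brightest transport kinesins without a call, the interval on the brightest probe set bounds the difference of that probe set. Kif5b, the widely expressed heavy chain of conventional kinesin, read 316 and 207 units in HSC and 358 and 353 in MPP (log2 difference -0.47, 95% interval -0.96 to 0.03). HSC replicate 2 was the low array, and without HSC replicate 1 the difference was -0.76 with a call (adjusted p = 0.0258). The other 5 Kif5b probe sets lay between -0.68 and 0.18. Kif16b, an early endosome motor, read 343 and 296 in HSC and 257 and 307 in MPP (0.18, interval -0.25 to 0.61). Its groups overlapped, and the sign was negative with equal array medians (-0.05) and on the probe set left when those of several transcripts were dropped (-0.22).

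Kif3c, a neuronal relative of the heterotrimeric motor subunits, read 201 and 177 units in HSC and 148 and 128 in MPP (log2 difference 0.44, interval -0.04 to 0.91). Kif13a, a motor of recycling endosomes and melanosomes, read 171 and 174 in HSC and 166 and 149 in MPP (0.13, interval -0.33 to 0.59), and was at -0.10 with equal array medians. On the brightest probe set, the interval of each of these 4 genes excludes a change as large as any called kinesin's fitted difference. A dimmer probe set of each had a wider interval that does not exclude a change of the size of Kif17's (-1.05). These were at 0.95 for Kif3c (interval -0.28 to 2.17) and 0.87 for Kif13a (-0.08 to 1.81). For Kif16b it was at 0.57 (-0.23 to 1.38) and for Kif5b at -0.68 (-1.68 to 0.32). The other 7 uncalled genes were Kif13b, Kif5a, Kif21b, Kif3a, Kif1c, Kif3b and Kif5c, with differences from -0.39 to 0.87; Kif5c passed the filter only through HSC and Kif5a only through MPP. Kif1a, the axonal vesicle motor, was not tested: one of its probe sets read 10.6 and 7.28 in HSC and 8.39 and 13.9 in MPP.

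**Figure D4:**
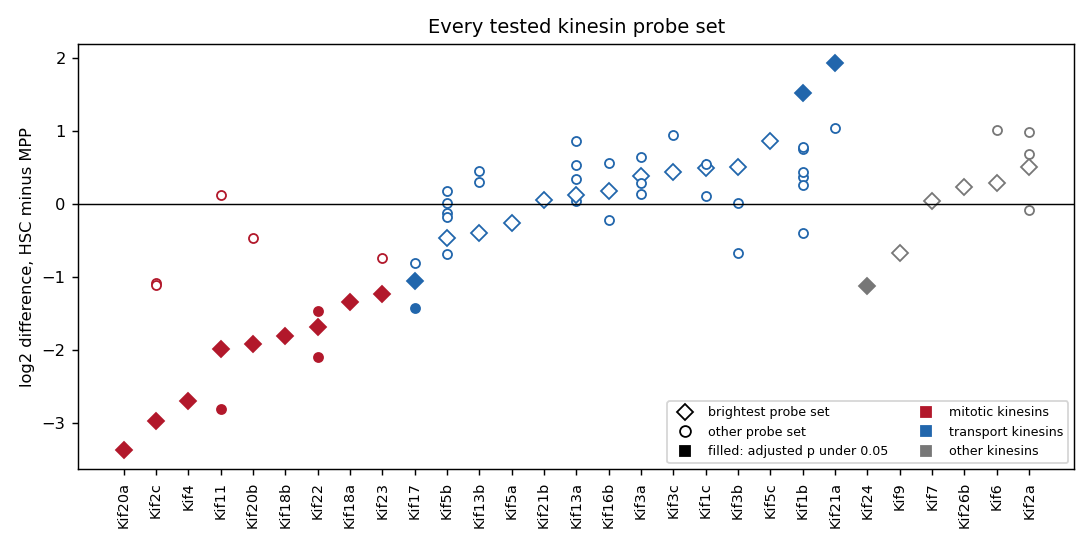
Log2 difference, HSC minus MPP, of every tested kinesin probe set by gene; diamonds are the brightest probe set of each gene, and filled points have an adjusted p under 0.05. Among the mitotic genes (red) 12 of 17 points are filled and 16 lie below 0, the exception being a Kif11 probe set at 0.13; only 1 of the 7 Kif1b points is filled.

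Among the 10 kinesins with other roles, 6 were tested, 1 fell and none rose (5.90% and 7.71% of all genes tested), with a median log2 difference of 0.14. The gene that fell was Kif24, which shortens microtubules at the mother centriole and holds back the growth of a cilium. It read 36.7 ± 4.67 units (SD, n = 2) in HSC and 89.1 and 83.7 in MPP, with close replicates (log2 difference -1.12, SE 0.28, adjusted p = 0.0297), and was no longer called when either MPP array was left out (adjusted p = 0.168 without replicate 1 and 0.14 without replicate 2), nor with no filter (0.0857) or no trend (0.0648). Kif2a, named after its values were seen as the relative of Kif2c, read 683 and 561 in HSC and 431 and 435 in MPP, with the HSC arrays above both MPP arrays. Its difference was 0.51 (interval 0.12 to 0.90) but missed the threshold after adjustment (adjusted p = 0.0995), and it was called without HSC replicate 2 (0.65, adjusted p = 0.0327). Kif6, Kif7, Kif9 and Kif26b lay between -0.67 and 0.29 without a call, and Kif12, Kif26a, Kif27 and Kif28 were not tested.

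Most genes that work with the mitotic kinesins were lower in HSC too. Of 16 listed partners 15 were tested, 14 fell and none rose, where 5.90% of all genes tested were called lower and 7.71% higher. Their median log2 difference was -2.13, beside 0.10 over all genes. Prc1, which bundles the antiparallel microtubules that Kif4 and Kif23 act on, read 80.2 and 73.6 units in HSC and 504 and 429 in MPP (-2.51, adjusted p = 5.74e-05). Cdca8 (borealin), a subunit of the passenger complex carried by Kif20a, read 469 and 493 in HSC and 2567 and 1839 in MPP (-2.16, adjusted p = 7.34e-05). Ect2, which activates RhoA at the cleavage furrow, read 168 and 99.2 in HSC and 1064 and 840.0 in MPP (-2.81, adjusted p = 8.26e-05). In each of the 3 the HSC and MPP arrays were far apart.

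Racgap1, the partner of Kif23 in centralspindlin, and Cit were named after their values were seen. Racgap1 read 64.6 and 47.4 units in HSC and 179 and 142 in MPP (-1.43, adjusted p = 0.00604), and was uncalled without MPP replicate 1 (0.0512) or with no trend (0.0524). Cit, citron kinase, the partner of Kif14, was the tested member without a call, at -0.25 on its brightest probe set (adjusted p = 0.615), of the _x_at type. Another Cit probe set was at -1.64 with a call when such types were left out (adjusted p = 0.00453). With the mean of all its tested probe sets Cit was at -1.29 with a call (adjusted p = 0.0121), and without HSC replicate 1 or 2, where that other probe set was the brightest, at -1.41 and -1.87 with calls (adjusted p = 0.00712 and 0.00104).

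**Figure D5:**
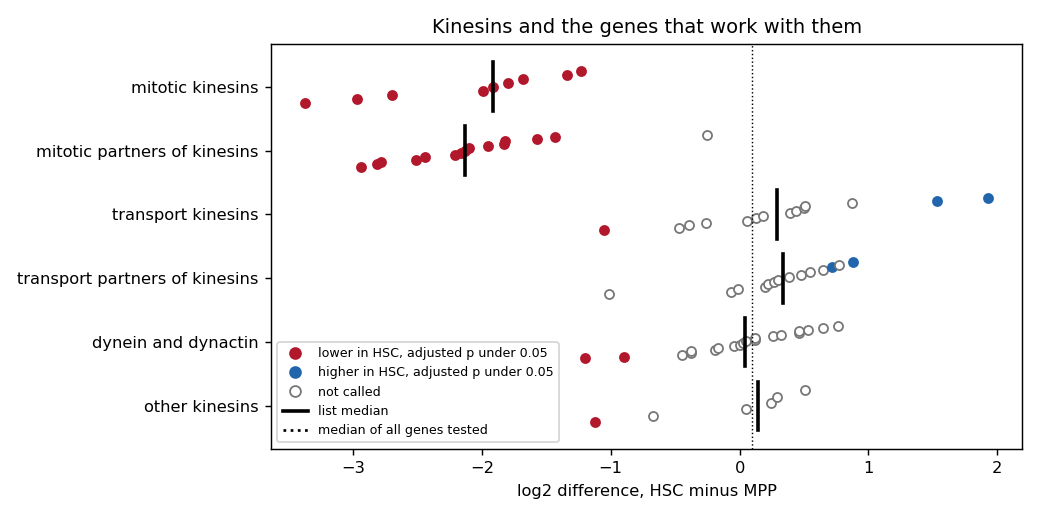
Log2 difference, HSC minus MPP, of the tested members of 3 kinesin lists and 3 lists of genes that work with them; colours mark the call at an adjusted p under 0.05, black bars the list medians and the dotted line the median of all genes tested. Mitotic kinesins and their partners have medians of -1.91 and -2.13, while the medians of the other 4 lists lie between 0.04 and 0.34.

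Light chains, adaptors and other partners of transport kinesins were mostly not called: of 18 listed 14 were tested, 2 rose and none fell, where 7.71% of all genes tested were called higher and 5.90% lower. Their median log2 difference was 0.34, beside 0.10 over all genes. Trak2, which couples conventional kinesin to mitochondria, read 209 and 205 units in HSC and 92.6 and 130.2 in MPP (log2 difference 0.88, adjusted p = 0.0364). Madd, which links Kif1b to vesicles, read 407 and 387 in HSC and 252 and 225 in MPP (0.72, adjusted p = 0.0312). The groups did not overlap for either gene, but neither was called with equal array medians (adjusted p = 0.114 and 0.123), nor without MPP replicate 1 (0.274 and 0.102), nor with no filter (0.0764 and 0.0506) or no trend (0.133 and 0.145). Trak2 was also uncalled without HSC replicate 1 (0.0523) and after quantile normalization (0.0621), and Madd without MPP replicate 2 (0.231) and with the mean of its probe sets (0.324).

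Dynein, the motor that moves toward microtubule minus ends, and its activator dynactin were mostly not called. Of 25 listed genes 20 were tested, 2 fell and none rose, where 5.90% of all genes tested were called lower and 7.71% higher. Their median was 0.04, beside 0.10 over all genes, and with equal array medians it was -0.20, beside -0.14. Dynll1, a light chain that also serves as a hub for many other proteins, read 1192 and 1514 units in HSC and 3312 and 2886 in MPP (log2 difference -1.20, adjusted p = 0.0014, uncalled with no trend at 0.0666). Nde1, a dynein regulator needed in dividing neural progenitors, read 101 and 84.8 in HSC and 196 and 163 in MPP (-0.90, adjusted p = 0.0317). The HSC arrays were below the MPP arrays for both genes. Nde1 was uncalled when HSC replicate 2 (adjusted p = 0.0616), MPP replicate 1 (0.227) or MPP replicate 2 (0.0857) was left out, and with no filter (0.0648) or no trend (0.112). Without HSC replicate 1, 3 genes of the list rose.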

How the data were processed

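The deposited values were probe set intensities on a linear scale; their mean without the lowest and highest 2% was about 100.0 on every array, so each array had been scaled by the authors, with software not given in the sources used here. No detection calls were used. Gene names came from the platform annotation, updated through gene identifiers to RefSeq (GRCm38.p6). Intensities were analysed as log2(intensity + 6.01), without the 64 control probe sets. The dimmest 40% of probe sets by mean were not tested. HSC and MPP were compared over the 27022 remaining probe sets (12382 genes) with limma 3.58.1 (R 4.3.3), with a trend on mean level, 2-sided, and Benjamini-Hochberg adjustment over all of them at 0.05. The method was run on simulated data with normal noise and limma's own variances, which cannot show how well its assumptions hold for these 4 arrays. Each gene was represented by its brightest tested probe set. With 2 degrees of freedom left among the samples and 8.48 from the prior, most of the error estimate is shared between probe sets, and 4 arrays limit the precision.

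The members and lists were chosen with earlier results of these data known. Values on every array are given for all mitotic members, called transport or other members and the 4 brightest uncalled transport members, and for partner lists up to 3 called members per direction with the smallest p. Alternatives covered the pseudocount, filter, normalization, prior variance, probe set choice, a replicate block and each array left out; those for partner genes and lists, for Kif2a and for members above the filter in both groups were added after seeing the data.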

Additional observations from a re-analysis of the deposited data

How the results depend on the processing

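Over the 14 processing alternatives 6 to 9 mitotic kinesins fell, none rose, and the list's median stayed below 0; it was -1.40 without probe sets of types _x_at, _s_at and _a_at and -2.37 to -1.61 over the arrays left out. For transport kinesins, none fell with the pseudocount at 0.05 of the median, no filter or no trend, and 0 to 2 fell with an array left out, against 1; 1 rose instead of 2 with the lowest 60% left out or the mean of all probe sets. Their median was 0.05 with equal array medians and 0.20 to 0.41 with an array left out. Kif16b reversed to -0.05 and Kif13a to -0.10 with equal array medians, and Kif16b to -0.22 without the probe set types above. For other kinesins, none fell with no filter or no trend, 0 to 1 fell and 0 to 1 rose with an array left out, and the median, 0.14, turned negative with the lowest 60% left out (-0.30, 2 genes), equal array medians (-0.09), quantile normalization (-0.07), without HSC replicate 1 (-0.06) and without MPP replicate 2 (-0.08). Of transport kinesins above the filter in both groups 1 rose; this and the count of Kif2a as mitotic were chosen after seeing the data. With the pseudocount at the median Kif18b was at -1.21, Kif20a at -2.41, Kif4 at -2.02 and Kif21a at 1.25, all still called, and Kif20a was at -3.97 with the smaller one.

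Among mitotic partners 9 of 10 fell without those probe set types. Their median was -1.83 there, -1.92 with the pseudocount at the median, -2.36 with equal array medians, -1.82 with the mean of all probe sets and -2.38 to -1.92 with an array left out. Transport partners that rose numbered 0 with no filter, equal array medians or no trend, 1 after quantile normalization or with the mean of all probe sets, and 0 to 2 with an array left out. Their median was 0.24 and 0.41 with the larger and smaller pseudocount, 0.23 after quantile normalization, 0.11 with equal array medians, 0.45 with the mean, 0.55 without those types and 0.20 to 0.55 with an array left out. For dynein and dynactin, 1 fell with no filter or without those types and 0 with no trend, and 1 to 2 with an array left out; 1 rose with the larger pseudocount, the lowest 60% left out, quantile normalization, those types left out or the block, and 0 to 3 with an array left out; the median was -0.20 with equal array medians and 0.07 to 0.18 with an array left out.

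Replicate numbers are shared by the groups but pair nothing that the labels state, and the correlation of same-numbered deviations was 0.03. With the replicate number as a block 9 mitotic kinesins fell, with a median of -1.91, and 2 transport kinesins rose and 1 fell, as without it; that fit had a single residual degree of freedom. With an array left out its group has 1 sample, assumed to vary like the other group. Probe sets at or under the floor have no measured level. Apart from the setting with no filter, counts under the alternatives stand without the share of all genes called in the same setting.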
